A study of Sus scrofa with 4 samples.

Results

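Mesothelial cells form the thin sheet that covers the lung surface and lines the pleural cavity. They combine an epithelial shape, simple keratins and surface glycoproteins with transcription factors of mesodermal origin, and in the embryo cells of this layer are known to move into the lung and contribute mesenchyme. The markers described here were chosen by name: MSLN (mesothelin, a surface glycoprotein), UPK3B and UPK1B (uroplakins, membrane proteins shared with the urothelium), LRRN4 (a leucine-rich repeat membrane protein), WT1 and BNC1 (zinc finger transcription factors) and CALB2 (calretinin, a calcium-binding protein used to stain mesothelium). Of these 7 markers, 4 matched a row among the 29263 genes counted (UPK1B, WT1, CALB2 and BNC1). The other 3, MSLN, UPK3B and LRRN4, were not matched and were not analysed here: UPK3B was sought by symbol and identifier, MSLN and LRRN4 by symbol alone, and a row with only an identifier may hold one of them, so membrane proteins much used to recognise mesothelium carry no value below.

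The cells came from lungs of pigs of the genotype LGR5-H2B-GFP knock-in, whose green fluorescent histone reports the R-spondin receptor gene LGR5. Both groups carry this knock-in and received no treatment named in the labels. GFP-HI holds cells sorted for bright fluorescence and GFP-NEG cells sorted without it, each with 2 libraries numbered as biological replicates 1 and 2. The labels describe adult and fetal tissue together and give no age for these libraries, the authors' table of the comparison is named for adult pigs with a further unexplained code, and any sorting by EPCAM or NGFR antibodies is not specified for them.

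Values are CPM, that is raw counts divided by the library total and a TMM scaling factor, on edgeR's usual scale. GFP-HI libraries held 24200550 and 24689986 counts and GFP-NEG libraries 6292253 and 7045652, so that 1 count was worth 0.0452 and 0.0494 CPM in GFP-HI and 0.155 and 0.109 CPM in GFP-NEG. LGR5 stood at 145 and 152 CPM in GFP-HI and at 1.55 and 0.765 CPM in GFP-NEG, in the direction of the labels. All 10 genes of a fibroblast list were higher in both GFP-HI libraries than in either GFP-NEG library, as were 27.7% of all tested genes (42% lay fully below), with list sums of 82800 and 74200 CPM against 25300 and 9100 CPM. Leukocyte list sums were 265 and 425 CPM in GFP-HI and 1460 and 2310 CPM in GFP-NEG. The GFP-NEG libraries showed no count for 17.6% and 11.2% of all genes, against 35.9% and 37.1% in the GFP-HI libraries, although GFP-HI held more counts in total.

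The mesothelial markers had at most 52 counts in any library and were sparser in GFP-HI. Over the 4 markers, the GFP-HI libraries held 3 and 18 counts in all and the GFP-NEG libraries 33 and 85. The summed level was 0.135 and 0.889 CPM in GFP-HI and 5.11 and 9.29 CPM in GFP-NEG. In GFP-HI replicate 1, 3 of the 4 markers had no count, and in GFP-HI replicate 2 the marker at 0 was CALB2. In GFP-NEG replicate 1 the marker at 0 was WT1, and in GFP-NEG replicate 2 all 4 had counts. In bulk libraries, fewer cells of a type and less RNA per cell cannot be told apart.

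**Figure D1:**
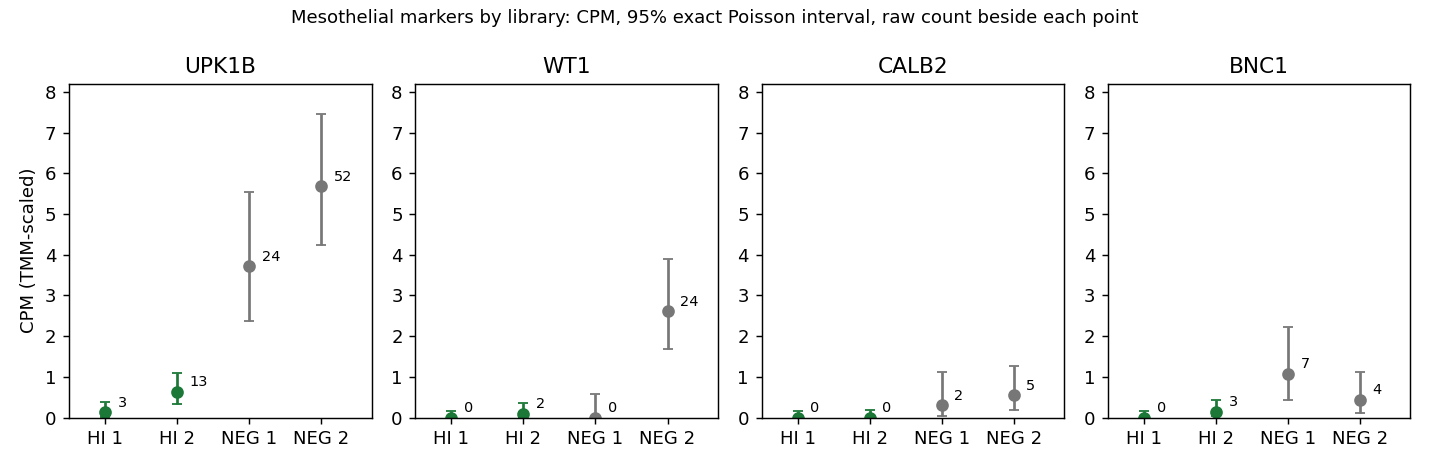
Each panel plots 1 mesothelial marker, with CPM on the vertical axis and the 4 libraries on the horizontal axis. Points are single libraries, bars are 95% exact Poisson intervals (counting error only) and the number beside a point is the raw count. UPK1B is the marker with the most counts, at 24 and 52 in GFP-NEG, and WT1 is seen mainly in GFP-NEG replicate 2.

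UPK1B, a tetraspanin that pairs with UPK3 proteins in membrane plaques, was the most counted marker. It had raw counts of 3 and 13 (GFP-HI) and of 24 and 52 (GFP-NEG). These correspond to 0.135 and 0.642 CPM in GFP-HI and to 3.72 and 5.68 CPM in GFP-NEG. Both GFP-HI libraries lay below both GFP-NEG libraries. The GFP-HI mean of 0.389 ± 0.358 CPM compares with 4.70 ± 1.39 CPM in GFP-NEG (SD, n = 2 in each group). UPK1B alone of the 4 passed the filter on low counts, and it fell by 3.58 on the log2 scale with a standard error of 1.25 (edgeR quasi-likelihood test, adjusted p = 0.0148). The authors' deposited table lists it at -3.61 with an adjusted p of 0.010. Among all 19682 tested genes, 27.6% were called lower in GFP-HI by the same test, so a single marker called lower is a common outcome in this comparison.

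The UPK1B call depended on single libraries, while its sign could hardly turn with groups so far apart. Its log2 fold change was -2.78 without GFP-HI replicate 1 (adjusted p = 0.154) and -3.24 without GFP-NEG replicate 2 (adjusted p = 0.18, edgeR in both). With DESeq2 and the replicate number as a block, the adjusted p was 0.0636. Over 12 alternatives the adjusted p ranged from 0.00438 to 0.18, and UPK1B was lower in GFP-HI in each of the 12.

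WT1, a zinc finger factor of the embryonic mesothelium, kidney and gonad, was uneven between the GFP-NEG replicates. It had raw counts of 0 and 2 (GFP-HI) and of 0 and 24 (GFP-NEG). The level in GFP-NEG replicate 2 was 2.62 CPM, with an exact 95% Poisson interval of 1.68 to 3.9 CPM. The 0 counts of GFP-NEG replicate 1 allow a level of up to 0.464 CPM (3 counts), so the replicates of that group differ by more than counting error. The groups overlapped, because replicate 1 of both had no WT1 count. Over summed counts, GFP-NEG was 32.6 times GFP-HI, with a 95% counting interval of 8.09 to 284, and this ratio rests on 1 library.

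CALB2, the calretinin gene, had raw counts of 0 and 0 (GFP-HI) and of 2 and 5 (GFP-NEG). A count of 0 allows up to 0.135 and 0.148 CPM in the GFP-HI libraries, and the GFP-NEG levels were 0.310 and 0.546 CPM. Against a floor of 3 counts over the group, CALB2 was at least 6.33-fold lower in GFP-HI with its 7 GFP-NEG counts taken as exact. With GFP-NEG replicate 1 alone this bound was 4.37, and with GFP-NEG replicate 2 alone it was 7.72. The lower 95% limit of the ratio with counting error in both groups was 3.91. Both GFP-HI libraries were below both GFP-NEG libraries, by a handful of counts.

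BNC1, basonuclin 1, a zinc finger factor of keratinocytes, germ cells and mesothelium, had raw counts of 0 and 3 (GFP-HI) and of 7 and 4 (GFP-NEG). Its levels were 0 and 0.148 CPM against 1.08 and 0.437 CPM. The groups did not overlap, and over summed counts GFP-NEG was 9.95 times GFP-HI with a 95% counting interval of 2.63 to 55.6. The counting intervals of GFP-HI replicate 2 (0.0306 to 0.433 CPM) and GFP-NEG replicate 2 (0.119 to 1.12 CPM) overlapped.

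WT1, CALB2 and BNC1 were left untested by the filter. When every gene with a count was tested (26737 genes), none of the 3 passed the threshold, with adjusted p-values of 0.0781 for WT1, 0.127 for CALB2 and 0.264 for BNC1 (edgeR). The unadjusted p-values in that edgeR fit were 0.027 for WT1, 0.053 for CALB2 and 0.149 for BNC1. The WT1 counts came almost wholly from GFP-NEG replicate 2. An exact permutation test of any single gene with 2 libraries against 2 cannot give a two-sided p under 0.05.

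The direction seen for the markers was also the most frequent one among genes of a similar mean level. For 3 of the 4 markers both GFP-HI libraries were below both GFP-NEG libraries, against 44.2% of the 26737 genes with at least 1 count. Among the 10072 genes whose mean CPM over the 4 libraries lay in the range of the markers (0.214 to 2.54 CPM), 74.1% had GFP-HI fully below GFP-NEG, and 2.91% had it fully above. A list of genes typical of other organs, such as pituitary, kidney, muscle and germ line genes, was set beside them. Of the 35 with a row, 14 had GFP-HI fully below and 1 fully above. The share fully below was near the 44.2% of all genes with at least 1 count. The summed levels of the list overlapped (GFP-HI 18.3 and 59.3 CPM, GFP-NEG 33.1 and 48.3 CPM). Those 35 genes had no count in 62.9% and 65.7% of cases in the GFP-HI libraries and in 40.0% and 25.7% of cases in the GFP-NEG libraries. MYL1, a skeletal muscle myosin light chain, had raw counts of 0 and 0 (GFP-HI) and of 12 and 42 (GFP-NEG). TNNT3, a fast skeletal muscle troponin, had raw counts of 14 and 5 (GFP-HI) and of 13 and 72 (GFP-NEG). CKM, the muscle creatine kinase, had raw counts of 64 and 55 (GFP-HI) and of 20 and 65 (GFP-NEG) and did not pass the threshold (edgeR adjusted p = 0.521). CYP7A1, the liver enzyme of bile acid synthesis, was called higher in GFP-HI, with raw counts of 203 and 970 (GFP-HI) and of 68 and 60 (GFP-NEG) and overlapping groups (edgeR adjusted p = 0.0106). These 4 genes were picked with their values in view. The part of this low-count difference in the marker values was not tested.

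**Figure D2:**
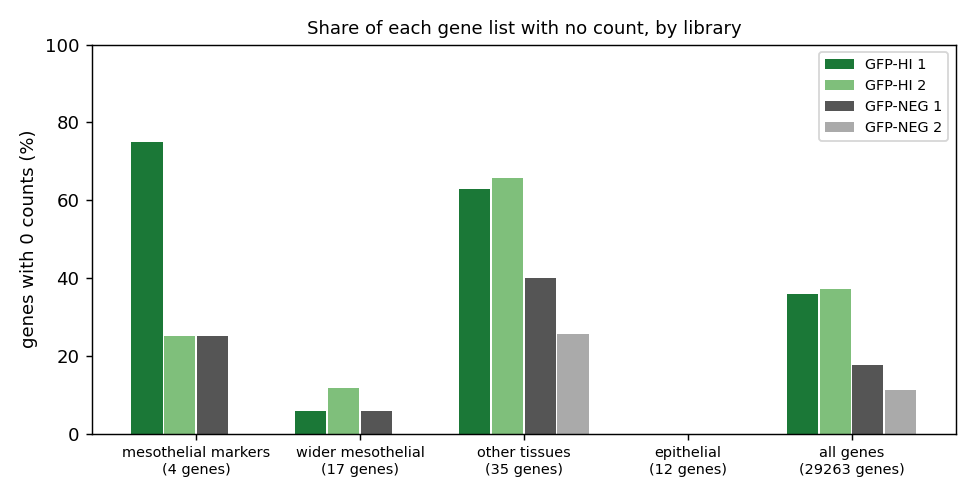
The bars give the percentage of genes in each list with 0 counts, for each of the 4 libraries, with the number of genes with a row under each list name. For the genes of other tissues and for all genes the GFP-NEG bars are lower than the GFP-HI bars, while no epithelial list gene is at 0 in any library.

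By the shape of its levels over the 4 libraries, UPK1B was most like CD8A and GIMAP6. CD8A encodes a coreceptor of cytotoxic T cells, and GIMAP6 a GTPase of lymphocytes. CD8A had raw counts of 29 and 93 (GFP-HI) and of 132 and 302 (GFP-NEG). GIMAP6 had raw counts of 51 and 140 (GFP-HI) and of 195 and 474 (GFP-NEG). The likeness is the root mean square difference of log2 CPM, each centred on its own mean, which was 0.0793 for CD8A and 0.0817 for GIMAP6. Of 12771 named genes with a mean of at least 1 CPM, 48 came within 0.25 of UPK1B, and with 4 libraries such closeness is a description only. Of the 8 genes on the leukocyte list, 5 were called lower and 0 higher in GFP-HI, and of the 6 on the endothelial list 6 were called lower, beside 27.6% of all tested genes. No gene of either list was at 0 in any library. The part of leukocytes and endothelial cells in the UPK1B values was not tested.

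A wider list of 21 genes used for mesothelium, many of them shared with fibroblasts or epithelium, split between the fractions. Of these, 17 had a row and 16 were tested, of which 4 were called higher and 2 lower in GFP-HI. ITLN1, PRG4, MUC16 and ANXA8 were not matched to a row and were not analysed here. The median log2 fold change was -0.825, beside -0.25 over all tested genes, of which 8.33% were called higher and 27.6% lower. The summed level of the 17 genes was 757 and 1120 CPM in GFP-HI and 970 and 205 CPM in GFP-NEG, and most of it was TCF21 and SLPI.

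The higher genes were TBX18, PDPN, TCF21 and HAS1. TBX18, a T-box factor of embryonic mesothelium and of mural and fibroblast lineages, was at 38.7 and 29.8 CPM in GFP-HI and at 10.7 and 3.93 CPM in GFP-NEG. It rose by 2.24 with a standard error of 0.583 on the log2 scale (edgeR adjusted p = 6.8e-04). PDPN, podoplanin, a membrane mucin of mesothelium, alveolar type 1 cells, lymphatic vessels and fibroblasts, was at 39.9 and 69.2 CPM against 14.4 and 7.43 CPM. The log2 fold change of PDPN was 2.33 ± 0.547 (SE, edgeR adjusted p = 1.8e-04). Both genes had groups fully apart, as had TCF21 and HAS1. Of the 17 genes of the wider list, 4 had GFP-HI fully above GFP-NEG and 6 fully below, beside 27.7% and 42% of all tested genes. The fibroblast list moved with TBX18 and PDPN, with 7 of its 10 genes called higher and 0 lower in GFP-HI. Over all tested genes 8.33% were called higher and 27.6% lower. COL1A1, COL1A2 and COL3A1 were not called (edgeR adjusted p = 0.36, 0.46 and 0.29). The authors' deposited table lists them with adjusted p-values of 0.0035, 0.016 and 7.5e-04. The part of the fibroblast list in the TBX18 and PDPN values was not tested.

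TBX18 and PDPN lost their calls in 1 of 12 alternatives, the fit without GFP-NEG replicate 2, where adjusted p-values were 0.178 and 0.116. Over the 12 alternatives the adjusted p ranged from 5.3e-04 to 0.178 for TBX18 and from 2.2e-04 to 0.116 for PDPN.

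TCF21, a basic helix-loop-helix factor of lung mesenchyme and mesothelium-derived cells, was at 494 and 775 CPM in GFP-HI. In GFP-NEG it was at 364 CPM in replicate 1 and 17.5 CPM in replicate 2, so that the GFP-NEG libraries lay far apart. Its log2 fold change of 1.74 passed the threshold narrowly (edgeR adjusted p = 0.0477). It did not pass with DESeq2 (adjusted p = 0.45), and the authors' deposited table lists an adjusted p of 0.427. The call was lost in 8 of 12 alternatives, and the adjusted p ranged from 2.0e-04 to 0.659. The value was 5.18 without GFP-NEG replicate 1 and 0.802 without GFP-NEG replicate 2. HAS1, a hyaluronan synthase, was low throughout, with raw counts of 40 and 19 (GFP-HI) and of 0 and 1 (GFP-NEG). Over summed counts GFP-HI was 21.7 times GFP-NEG, with a 95% counting interval of 3.75 to 873. Its adjusted p was 0.0256 (edgeR) and 0.137 with the replicate block, and the call was lost in 9 of 12 alternatives (0.0119 to 0.34).

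The lower genes were SBSPON and GATA4. SBSPON, a secreted somatomedin B and thrombospondin domain protein, had raw counts of 19 and 19 (GFP-HI) and of 63 and 38 (GFP-NEG). This is 0.858 and 0.939 CPM against 9.75 and 4.15 CPM, and SBSPON fell by 2.94 ± 1.05 on the log2 scale (SE, edgeR adjusted p = 0.0176). The call was lost in 4 of 12 alternatives (adjusted p from 0.00405 to 0.266), among them the fits without GFP-HI replicate 1, GFP-HI replicate 2 or GFP-NEG replicate 1. GATA4, a zinc finger factor of heart, gonad and visceral mesothelium, had raw counts of 4 and 0 (GFP-HI) and of 11 and 17 (GFP-NEG). Its edgeR adjusted p was 0.00955 without and 0.0737 with the replicate block. In the alternatives with all 4 libraries the adjusted p ranged from 0.0111 (edgeR, RLE scaling) to 0.155 (DESeq2 with replicate block). The call of GATA4 was lost in 6 of 12 alternatives. Over summed counts GATA4 in GFP-NEG was 19 times GFP-HI (95% counting interval 6.65 to 74.6). The mean level of GATA4 lay in the range of the markers, where 74.1% of genes had GFP-HI fully below GFP-NEG.

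The remaining 10 tested genes of the wider list did not pass the threshold. ALDH1A2, the retinoic acid-synthesising enzyme prominent in mesothelium, was at 1.81 and 0.642 CPM in GFP-HI and at 7.74 and 4.37 CPM in GFP-NEG. Its groups did not overlap, and its log2 fold change of -2.29 had an edgeR adjusted p of 0.0746 (0.0419 with the replicate block, and 0.0383 to 0.347 over 12 alternatives). RSPO1, an R-spondin and thus a ligand of LGR receptors, was at 5.78 and 1.43 CPM in GFP-HI and at 9.91 and 2.84 CPM in GFP-NEG. In both groups replicate 1 was the higher library, and the groups overlapped. Within each replicate number GFP-HI was the lower library, with log2 differences of -0.76 and -0.92. GPM6A, a membrane glycoprotein of neurons and mesothelium, was at 2.57 and 4.05 CPM against 7.43 and 4.48 CPM (log2 fold change -0.84, edgeR adjusted p = 0.507). SLPI, a secreted protease inhibitor, was at 117 and 176 CPM in GFP-HI and at 446 and 112 CPM in GFP-NEG. The other 6 (NKAIN4, CRB2, TM4SF1, GATA6, CDH3 and CFB) had log2 fold changes between -1.92 (CDH3) and 0.16 (TM4SF1). PKHD1L1, not tested, had raw counts of 5 and 0 (GFP-HI) and of 4 and 9 (GFP-NEG).

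Simple keratins, the filaments that mesothelium shares with other epithelia, did not pass the threshold in either direction. KRT8 was at 19.7 and 13.8 CPM in GFP-HI and at 48.0 and 16.3 CPM in GFP-NEG. KRT7 was at 5.10 and 1.88 CPM against 8.36 and 2.62 CPM. KRT18, the partner of KRT8, was at 1.94 and 0.445 CPM against 4.64 and 4.81 CPM, with groups apart and a log2 fold change of -1.97 (edgeR adjusted p = 0.16). Of the 3 tested keratins, 0 were called by edgeR, 0 had an unadjusted p under 0.05 and 0 were called by DESeq2. KRT19 was not matched to a row and was not analysed here. Beside these, all 12 genes of an epithelial list had a negative log2 fold change, where the median over all tested genes was -0.25. Some were close to 0, such as SCGB1A1 (-0.044) and AGER (-0.13). The summed levels of the list overlapped, at 364 and 356 CPM in GFP-HI and 798 and 226 CPM in GFP-NEG. The 3 epithelial genes past the threshold are no larger a share than the 27.6% of all tested genes called lower. The part of the epithelial list in the keratin values was not tested.

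**Figure D3:**
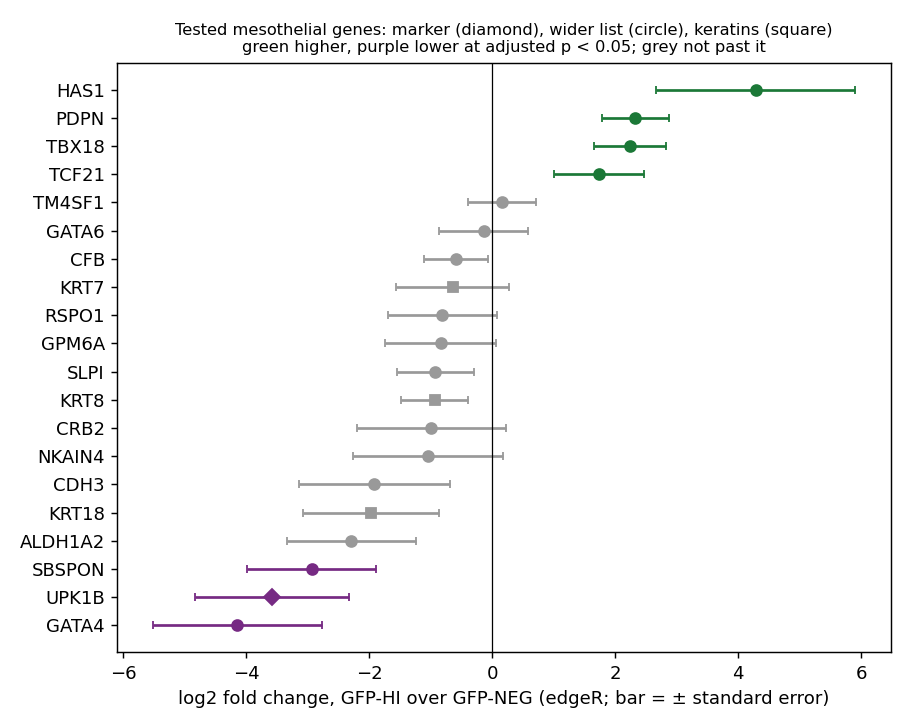
The horizontal axis gives the edgeR log2 fold change of GFP-HI over GFP-NEG with its standard error, for UPK1B, the 16 tested genes of the wider mesothelial list and 3 keratins. HAS1, PDPN, TBX18 and TCF21 are higher, and UPK1B, SBSPON and GATA4 lower past the threshold, while grey genes are not past it.

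Among relatives of the marker genes, chosen by family, BNC2, LRRN2 and LRRN3 were called higher in GFP-HI and UPK1A, EGR2, EGR3 and EGR4 lower. BNC2, the second basonuclin, which is known from skin and mesenchymal fibroblasts, had raw counts of 2311 and 1980 (GFP-HI) and of 202 and 79 (GFP-NEG). This is 104 and 97.8 CPM against 31.3 and 8.63 CPM, and BNC2 rose by 2.35 with a standard error of 0.546 (edgeR adjusted p = 1.7e-04). BNC1, in comparison, had at most 7 counts in any library. The lengths of the transcripts were not used, so these values are not a comparison of level between the genes.

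Relatives of LRRN4 were also counted. LRRN2 was at 30.8 and 31.7 CPM in GFP-HI and at 1.86 and 5.68 CPM in GFP-NEG, and it rose by 3.03 ± 0.624 on the log2 scale (SE, edgeR adjusted p = 3.1e-05). LRRN3 was at 84.7 and 146 CPM against 35.0 and 5.57 CPM, with a log2 fold change of 2.51 ± 0.555 (SE, edgeR adjusted p = 9.7e-05). In both genes the lower GFP-HI library was above the higher GFP-NEG library. LRRN1 was low, at 0.723 and 0.445 CPM against 0.774 and 3.06 CPM, and did not pass the threshold (edgeR adjusted p = 0.291). LRRN2 kept its call in all 12 alternatives. BNC2 and LRRN3 lost theirs without GFP-NEG replicate 2 (edgeR adjusted p = 0.182 and 0.183), the highest values over the 12, and the lowest were 1.8e-04 and 8.5e-05. Without GFP-NEG replicate 1 their log2 fold changes were 3.55 and 4.37.

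Among the uroplakins, UPK1A was lower in GFP-HI, as was UPK1B. UPK1A, the other uroplakin tetraspanin, had raw counts of 0 and 0 (GFP-HI) and of 16 and 26 (GFP-NEG). Against a floor of 3 counts over the group it was at least 38-fold lower in GFP-HI with the GFP-NEG counts taken as exact, and the lower 95% limit with counting error in both groups was 29.6. UPK1A kept its call in all 12 alternatives (edgeR adjusted p = 1.6e-04). Its mean level over the 4 libraries lay in the range of the markers (0.214 to 2.54 CPM). In that range 74.1% of genes had GFP-HI fully below GFP-NEG, and the part of this low-count difference in the UPK1A values was not tested. UPK3A, the partner of UPK1B in urothelium, was at 6.19 and 4.30 CPM in GFP-HI and at 2.63 and 3.82 CPM in GFP-NEG. Its groups were apart by a narrow margin, and it did not pass the threshold (log2 fold change 0.69, edgeR adjusted p = 0.606). UPK2 had at most 7 counts in a library.

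Early growth response factors bind GC-rich sites with zinc fingers related to those of WT1, and are also immediate early genes. EGR1, the most abundant of them, was at 356 and 142 CPM in GFP-HI and at 403 and 174 CPM in GFP-NEG. Replicate 1 was the higher library in both groups, and the log2 fold change of -0.21 did not pass the threshold (edgeR adjusted p = 0.833). EGR2 was at 12.7 and 13.4 CPM against 41.8 and 70.4 CPM and fell by 2.10 on the log2 scale (edgeR adjusted p = 5.2e-04, and 5.1e-05 to 0.114 over 12 alternatives). EGR4 had no count in GFP-HI, and raw counts of 13 and 71 in the GFP-NEG libraries. Against the same floor it was at least 76-fold lower in GFP-HI with the GFP-NEG counts taken as exact, and the lower 95% counting limit was 60.5. GFP-NEG replicate 2 held 84.5% of the GFP-NEG counts of EGR4, and with GFP-NEG replicate 1 alone the bound was 28.4. EGR4 passed the threshold (edgeR adjusted p = 2.7e-05, and 9.6e-06 to 0.09 over 12 alternatives). EGR3 had raw counts of 3 and 0 (GFP-HI) and of 6 and 18 (GFP-NEG). Its edgeR adjusted p was 0.00842 without and 0.112 with the replicate block. EGR3 and EGR4 also had mean levels in the range of the markers, where 74.1% of genes had GFP-HI fully below GFP-NEG. The call of EGR3 was lost in 7 of 11 alternatives (0.00975 to 0.522), and those of EGR2 and EGR4 in the fit without GFP-NEG replicate 2.

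CALB1, calbindin and the closest relative of calretinin on the list, had raw counts of 0 and 1 (GFP-HI) and of 0 and 15 (GFP-NEG), a pattern in which 1 library held nearly all counts, as for WT1. Of the mesothelin-related genes, MSLNL had no count in any library, OTOA had 6 counts in GFP-NEG replicate 1 and none elsewhere, and STRC had raw counts of 18 and 7 (GFP-HI) and of 1 and 22 (GFP-NEG). Of the 15 relatives, 11 were tested, 3 were called higher and 4 lower in GFP-HI, and their median log2 fold change was -1.17. Over all tested genes 8.33% were called higher and 27.6% lower, and the median was -0.25.

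**Figure D4:**
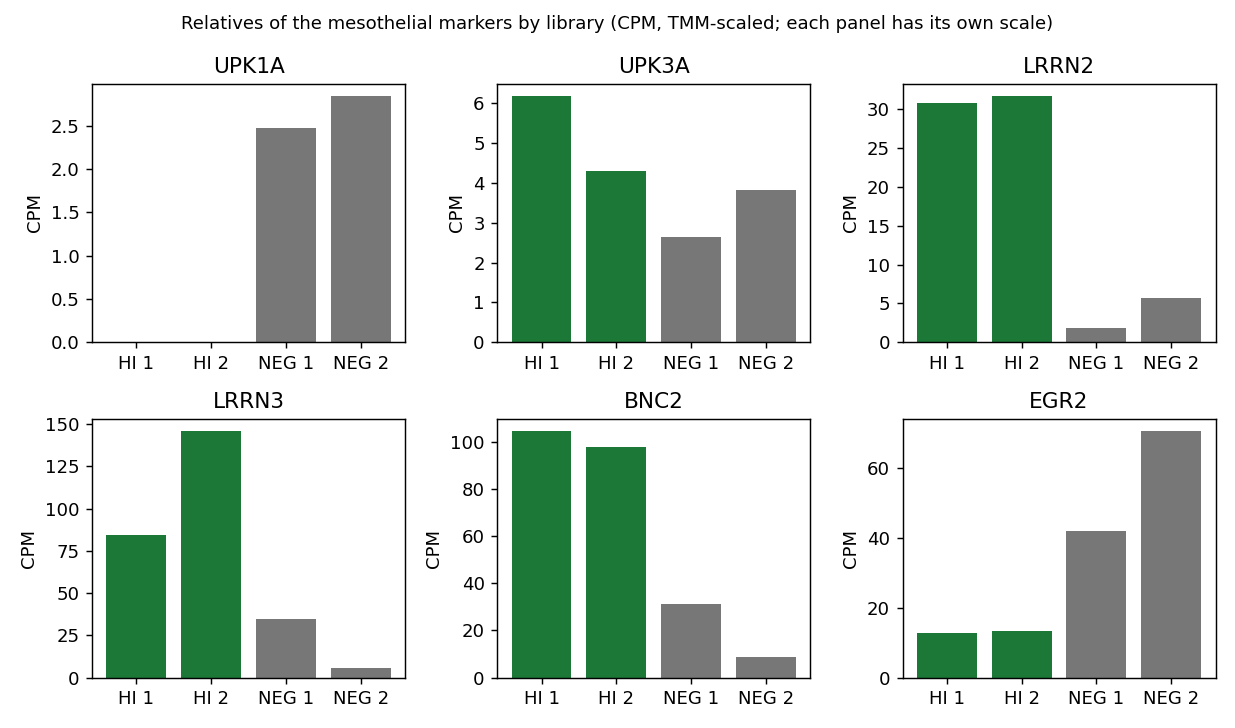
Bars give CPM in each of the 4 libraries for 6 relatives of the marker genes, each panel with its own axis from 0. BNC2, LRRN2 and LRRN3 are higher in both GFP-HI libraries, UPK1A has no bar in GFP-HI, EGR2 is higher in both GFP-NEG libraries, and UPK3A differs little.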

How the data were processed

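The authors deposited raw counts per gene for each of 4 libraries. Per the submitters' processing notes the tools include featureCounts, Subread 1.5.2 and DESeq2 1.37.6. The aligner and strand setting are not given in the sources used here, and the build only by what reads as an assembly and release number in the name of the comparison table, so overlapping genes and close copies are uncertain. The authors' deposited table of the comparison (16250 genes) gives log2 fold changes and adjusted p-values, and its count columns are identical to the single tables. Its 4 columns of normalized values per sample were not used, because 2 of their headings appear to be exchanged. Identifiers were replaced by symbols for 834 genes.

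Counts were tested with edgeR 4.0.16 in R 4.3.3 (TMM, filterByExpr, quasi-likelihood F test, group only), with Benjamini-Hochberg adjustment over 19682 genes and a threshold of 0.05. Standard errors were taken as the size of the log2 fold change over the square root of F. The fit shared its estimate of variation almost wholly between genes (prior degrees of freedom 2551). The spread of a single gene between replicates therefore weighed little in its standard error and p-value. This procedure was tested on simulated data, where it missed most of the genes set to change. A gene not past the threshold may therefore still differ. DESeq2 1.42.0 was an alternative. DESeq2 with the block, the range of mean CPM and the ratios of summed counts were chosen after seeing the data. The markers and lists were chosen with earlier results of these data known. Named were all markers, LGR5, listed genes past the threshold, the most abundant relatives, keratins and the genes most like a tested marker. Counting intervals and floors cover counting error only. The labels number the libraries as biological replicates, and the replicate block used these numbers. Headings of the comparison table number the pigs, and from them same-numbered libraries are taken to share a pig. Since 2 of those headings appear exchanged, the pairing by pig is uncertain. Deviations of same-numbered libraries from their group means correlated with r = 0.16 over 19682 genes, which are not independent.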

Additional observations from a re-analysis of the deposited data

How the results depend on the processing

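UPK1B was lower in GFP-HI under all 12 alternatives, a sign that groups so far apart could hardly lose. With DESeq2 and the replicate block together, 0 markers were called (UPK1B -3.96, adjusted p = 0.0636), and leaving out single libraries gave 0 to 1 marker called, with UPK1B from -4.98 to -2.78. The replicate block in edgeR kept UPK1B (-3.82, adjusted p = 0.0133) and gave 1705 genes higher and 4792 lower. It moved the calls of HAS1, GATA4, ALDH1A2 and EGR3 given above, and turned the sign of GATA6 (0.16).

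In the wider list, the number called higher was 2 under library size alone, upper-quartile scaling, no filter, the filter of 10 counts in 2 libraries and DESeq2. The number called lower was 1 with no filter and 0 under DESeq2 with the replicate block. Leaving out libraries gave 0 to 3 higher and 0 to 1 lower.

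Over all genes, 904 were higher under library size alone, 1083 under upper-quartile scaling and 951 with the filter of 10 counts, against 1639. Lower genes numbered 3182 with that filter and 3153 under DESeq2 with the replicate block, against 5431. Leaving out libraries gave 204 to 1539 higher and 1373 to 4680 lower. The median log2 fold change moved from -0.25 to -0.67 under library size alone and to -1.21 with no filter.

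Signs turned for genes not past the threshold. TM4SF1 was -0.20 under library size alone and -0.092 under upper-quartile scaling, and GATA6 was 0.14 under DESeq2 with the replicate block. When single libraries were left out, TM4SF1 ranged from -0.54 to 1.33, GATA6 from -0.84 to 1.22, RSPO1 from -2.08 to 0.34, SLPI from -1.60 to 0.39, NKAIN4 from -7.44 to 0.030, CRB2 from -1.80 to 1.18, KRT7 from -1.48 to 0.41, KRT8 from -1.52 to 0.042, EGR1 from -0.96 to 0.52 and STRC from -2.04 to 1.86. In each such fit the lone library of a group is assumed to vary like the other group. The cause of these moves was not tested. The smaller count totals of GFP-NEG limit the low counts, since 3 counts there are 0.464 and 0.328 CPM.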
